A study of Homo sapiens with 6 samples.

Results

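The genes of the insulin-like growth factor (IGF) axis described here are the binding proteins IGFBP2, IGFBP3, IGFBP4, IGFBP5 and IGFBP6, the receptors IGF1R, IGF2R and INSR, and the receptor adaptors IRS1 and IRS2. They were measured after silencing of NDRG1 in SKBR3, a human breast cancer cell line with amplified HER2. Of these 10 genes, 9 were measured among 14812 genes with a symbol, each by 1 probe, and IGFBP2 had no named probe and was not analysed here. The family was chosen by the measured difference of IGFBP5, which was the lowest of the 14812 in this same contrast, so the differences of the 9 genes are a description and carry no test. The NDRG1-silenced cells, called shNDRG1, expressed a lentiviral hairpin against NDRG1 (shRNA1 in the protocol) and gave 3 arrays. The control cells, called shGFP, expressed a hairpin against GFP, although the protocol names a vector control, and also gave 3 arrays. All cells were grown in DMEM with 10% FBS, were harvested in log phase, and were independent replicates per the methods. The titles number these as batches 1, 2 and 3, each batch with an array of both groups. Batches 2 and 3 carry the same date in the titles, and batch 1 an earlier one. The titles of batches 2 and 3 state that deferoxamine, an iron chelator, was left out, and those of batch 1 carry -DFO, in which the sign could be a minus or a hyphen. Since 1 hairpin was used against NDRG1, effects of NDRG1 loss and other effects of that hairpin cannot be told apart.

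IGFs are secreted ligands that signal through the tyrosine kinase receptor IGF1R and, for part of their action, through the insulin receptor INSR. Both receptors phosphorylate the docking proteins IRS1 and IRS2, which recruit PI3K and so activate AKT and mTOR. IGF binding proteins hold the ligands outside the cell and restrict or prolong their access to IGF1R, and IGF2R, the cation-independent mannose 6-phosphate receptor, carries IGF2 to lysosomes without signalling as a kinase. In mammary epithelium IGFBP5 is known as a secreted factor of involution, when the gland regresses after lactation.

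Each value is a log2 value from which the authors subtracted a baseline per probe, so it can be compared between arrays for a gene but not between genes. The 3 values of a group are given in the order of batches 1, 2 and 3. The silenced gene, NDRG1, was -0.77, -0.74 and -1.09 in shNDRG1 cells, against 0.022, 0.42 and -0.022 in shGFP cells. Every shNDRG1 array lay below every shGFP array, with a log2 difference of -1.01 (standard error 0.16), or 2.01-fold lower. Batch 2 was unlike the other 4 arrays in both groups: the first principal component held 72.0% of the variance and placed it at -22.0 (shNDRG1) and -31.1 (shGFP), against -1.11 (shNDRG1 batch 3) and 17.0 to 20.1 for the rest. Because levels were removed, the identity of the line could not be checked from its markers. Of 7 HER2-positive luminal markers 5 were measured, with differences of -0.44 to -0.11, and of 4 basal or mesenchymal markers 3 were measured, with differences of -0.099 to 0.029. Fewer cells of a type and less RNA per cell cannot be told apart in such bulk RNA, and the part of these marker differences in the results below was not tested.

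IGFBP5 was lower in shNDRG1 cells, and by a wider margin than any other member of the family. Its values were -1.09, -0.96 and -1.51 in shNDRG1 cells, against 0.45, 0.16 and -0.076 in shGFP cells. The groups did not overlap, with a gap of 0.89 between the highest shNDRG1 array and the lowest shGFP array, whereas the arrays spanned 0.55 within shNDRG1 and 0.52 within shGFP cells. The means were -1.19 ± 0.29 in shNDRG1 and 0.18 ± 0.26 in shGFP cells (SD, n = 3 each), a log2 difference of -1.36 (standard error 0.19), or 2.57-fold lower. The paired differences were -1.53, -1.12 and -1.43 in batches 1, 2 and 3, so batch 2, whose arrays stood apart, gave the smallest. The standard error was 0.096 once batch was entered as a block. Over the 6 arrays IGFBP5 spanned 1.95, and 99.7% of all genes spanned less.

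**Figure D1:**
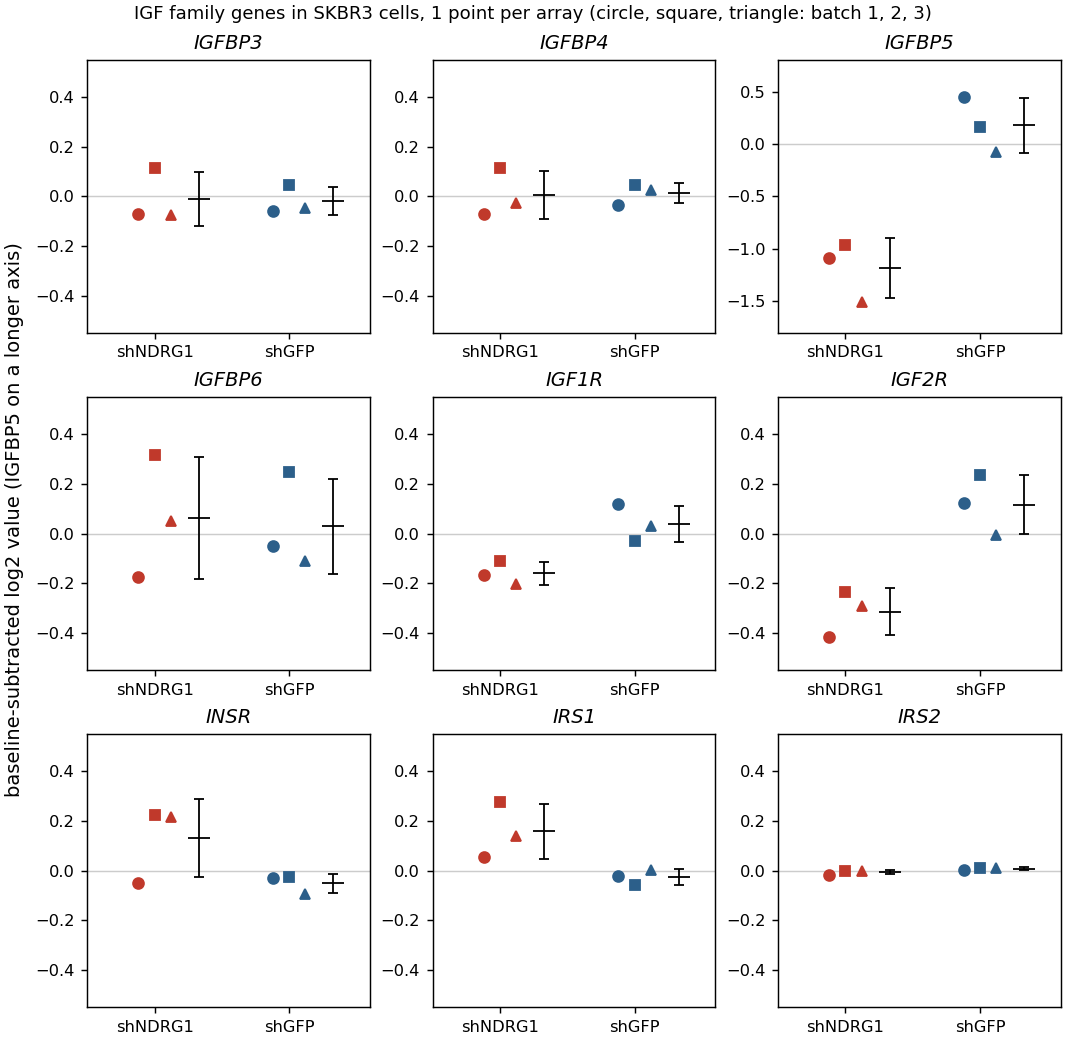
Baseline-subtracted log2 value (vertical axis) of each measured family member in shNDRG1 (left, red) and shGFP cells (right, blue), 1 point per array, with the mean and SD (n = 3) in black beside the points. IGFBP5, drawn on a longer axis, lies between -1.51 and -0.96 in shNDRG1 cells and between -0.076 and 0.45 in shGFP cells. IGF2R, IGF1R and IRS1 also show separated groups, as does IRS2 by a gap of only 0.0041.

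The RefSeq promoter of IGFBP5, 250 bases before to 50 after the gene's start on the minus strand at chr2:216695500-216695799 (GRCh38.p14), is shown because it belongs to the member with the widest difference and is unlike those of the other 2 members that were lower by a visible margin. The capitals mark TATTTAA, an AT-rich letter string chosen after the sequence was read, whose first base lies 31 bases before the start.
IGFBP5: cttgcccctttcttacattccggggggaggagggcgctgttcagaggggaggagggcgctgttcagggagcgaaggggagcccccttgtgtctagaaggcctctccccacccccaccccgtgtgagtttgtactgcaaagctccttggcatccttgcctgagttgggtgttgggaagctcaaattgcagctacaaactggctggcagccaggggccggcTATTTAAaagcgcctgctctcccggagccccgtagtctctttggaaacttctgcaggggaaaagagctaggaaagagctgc
Of 35116 RefSeq promoters of this length, 4.52% held TATTTAA on either strand. The window had a GC content of 59.0% and 9 CpG dinucleotides, and the medians of all promoters were 58.7% and 14. It held neither the E-box CACGTG nor the GC-box letters GGGCGG, and it held neither TATAAA nor a CCAAT string. These matches describe letters and not binding sites.

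The paralogs of IGFBP5 were nearly level between the groups. IGFBP3, the main carrier of IGFs in serum, was -0.072, 0.12 and -0.075 in shNDRG1 cells, against -0.058, 0.045 and -0.045 in shGFP cells. The groups overlapped, and both arrays of batch 2 were the highest of their group. IGFBP4, an inhibitory binding protein, was -0.072, 0.12 and -0.026 in shNDRG1 cells, against -0.033, 0.045 and 0.026 in shGFP cells. IGFBP6, which prefers IGF2 over IGF1, was -0.17, 0.32 and 0.049 in shNDRG1 cells, against -0.050, 0.25 and -0.11 in shGFP cells. Batch separated the IGFBP6 arrays more than group did, since both batch 2 arrays were above the other 4. The log2 differences were 0.0090 (standard error 0.072) for IGFBP3, -0.0067 (standard error 0.065) for IGFBP4 and 0.035 (standard error 0.16) for IGFBP6, each smaller than its standard error. Their signs turned when single arrays were left out, from -0.054 to 0.041 for IGFBP3, from -0.062 to 0.033 for IGFBP4 and from -0.091 to 0.15 for IGFBP6. IGFBP1, the remaining classical binding protein, which is outside the chosen set, was at 0.037 (standard error 0.049). Over the 6 arrays 27.8% of all genes spanned less than IGFBP3, 27.4% less than IGFBP4, 69.5% less than IGFBP6 and 12.45% less than IGFBP1. Without levels, a gene that was expressed and level cannot be told apart from a dim probe.

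Against these paralogs, IGFBP5 differed by more than 1 log2 unit in every batch, while no paired difference of IGFBP3, IGFBP4 or IGFBP6 left the interval from -0.12 to 0.16. IGFBP7, a related secreted protein with low affinity for IGFs, was the other binding protein with separated groups. It was -0.35, -0.17 and -0.14 in shNDRG1 cells, against 0.72, 0.26 and 0.14 in shGFP cells, a log2 difference of -0.60 (standard error 0.17) or 1.51-fold lower. Its paired differences were -1.08, -0.43 and -0.28 in batches 1, 2 and 3, so the shGFP array of batch 1 was the highest and that batch gave the widest difference. By order of the difference IGFBP7 was at rank 35 from the lowest.

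On chromosome 2, IGFBP5 lies next to IGFBP2, with the 3′ ends of both genes facing each other in GRCh38.p14, and it overlaps the noncoding RNAs IGFBP-AS1 and LOC124900515. None of the 5 nearest annotated genes on either side, IGFBP2 and IGFBP-AS1 included, had a named probe. The others were LOC124900515 itself, LOC124907976, LOC124907977, LINC01280 and the pseudogenes PSMB3P2, RPL31P14, RNA5SP120 and FABP5P14. The nearest 5 measured genes on each side, chosen after the values were seen, were therefore set beside it. They are not close neighbours: the nearest were TNP1 at 164 kb and RPL37A at 168 kb, and the furthest was CXCR2P1 at 1364 kb. Genes nearer to IGFBP5 could not be described. Their log2 differences lay between -0.13 and 0.20, with 5 above and 5 below 0. Only TNP1, which encodes a protein of sperm chromatin, had groups that did not overlap, at -0.13 (standard error 0.070) with a gap of 0.031. Over all genes the groups did not overlap for 3.21% lower and 5.14% higher, so nothing is read from this count. RPL37A, a ribosomal protein gene that is the first measured gene on the other side, was at -0.036 (standard error 0.049). PECR, a peroxisomal enzyme of fatty acid elongation, differed by 0.54 in batch 2 but by -0.10 in batch 1 and -0.042 in batch 3.

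**Figure D2:**
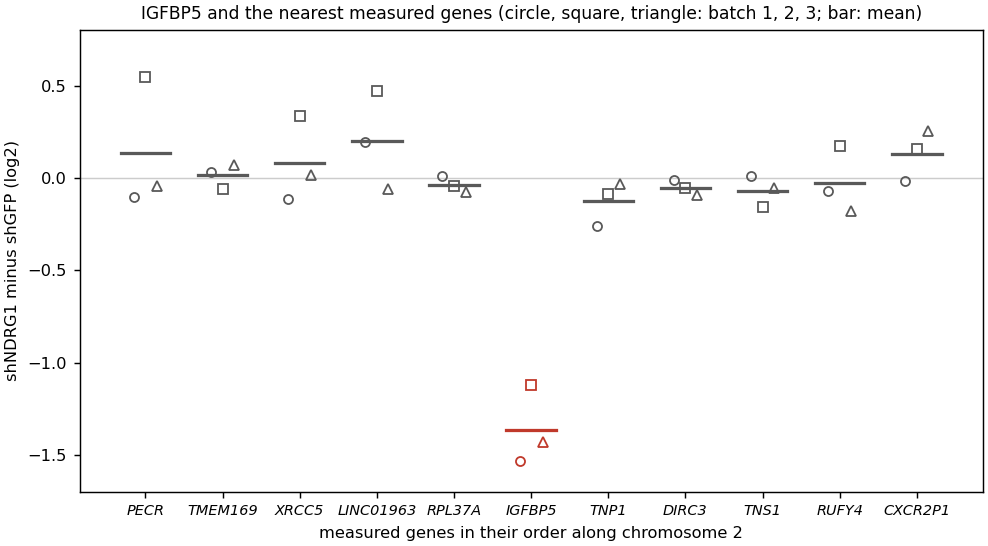
Difference between shNDRG1 and shGFP cells (vertical axis, log2) within each batch for IGFBP5 (red) and the 5 nearest measured genes on each side (grey), in their order along the chromosome, with bars for the means. The means of the 10 neighbours lie between -0.13 and 0.20 and that of IGFBP5 at -1.36. These neighbours are 164 to 1364 kb away from IGFBP5.

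In order of the difference over all genes, THRSP, TRAM2 and SERHL2 followed IGFBP5. THRSP, which encodes the lipogenic protein Spot14, was at -1.27 (standard error 0.33), TRAM2, a protein of the endoplasmic reticulum translocon, at -1.14 (standard error 0.19) and SERHL2, a serine hydrolase-like protein, at -1.05 (standard error 0.10). The step between IGFBP5 and THRSP was smaller than either standard error. Without the shNDRG1 array of batch 1, without the shGFP array of batch 2, or without both arrays of batch 1 or of batch 2, IGFBP5 had rank 2.

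TRAM2 also had the values most like those of IGFBP5 over the 6 arrays, by the root mean square difference after each gene was centred on its own mean. This difference was 0.12 for TRAM2, 0.26 for SRARP, a steroid receptor associated and regulated protein, 0.27 for THRSP, 0.27 for NDRG1 itself and 0.29 for ALDH2, the mitochondrial aldehyde dehydrogenase. TRAM2 was -0.77, -0.79 and -1.28 in shNDRG1 cells and 0.43, 0.19 and -0.045 in shGFP cells, so its lowest array in each group was that of batch 3, as for IGFBP5. NDRG1 differed from IGFBP5 in its shGFP arrays, where batch 2 was the highest, whereas IGFBP5 was highest in batch 1. All 5 genes had groups that did not overlap, which the measure favours because IGFBP5 is itself split by group.

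**Figure D3:**
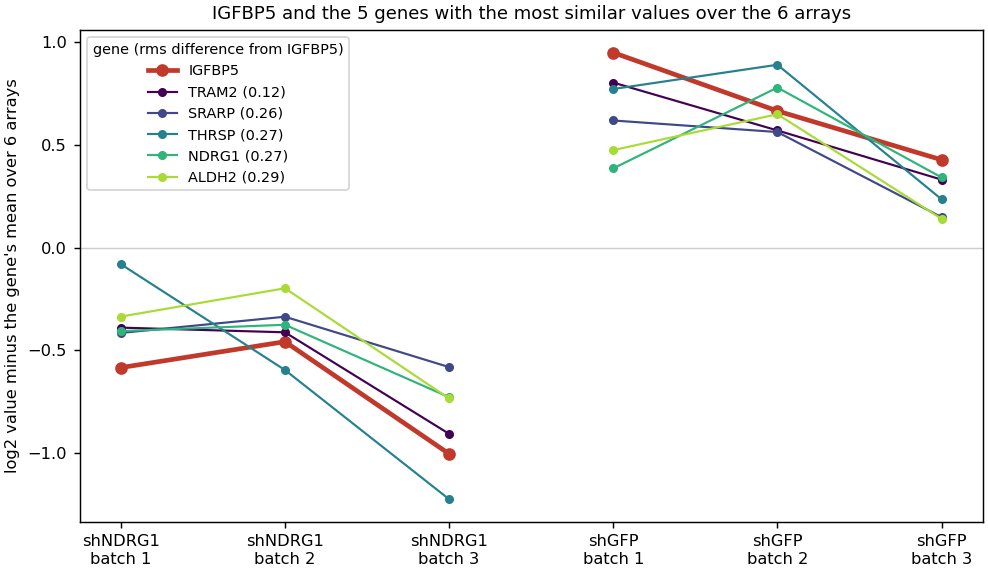
Value of IGFBP5 (thick red line) and of the 5 most similar genes on each of the 6 arrays (horizontal axis), as log2 value minus the mean of the gene over the 6 arrays, with lines joining the arrays of a group only to identify the gene. Every gene lies below its mean on the shNDRG1 arrays and above it on the shGFP arrays, and TRAM2 follows IGFBP5 at a root mean square difference of 0.12.

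Of the receptors, IGF2R and IGF1R were lower in shNDRG1 cells in every batch. IGF2R was -0.42, -0.24 and -0.29 in shNDRG1 cells, against 0.12, 0.23 and -0.0059 in shGFP cells. The groups were 0.23 apart at their nearest arrays, and the log2 difference was -0.43 (standard error 0.085), or 1.35-fold lower, at rank 119 from the lowest. Its paired differences were -0.54, -0.47 and -0.28. IGF1R, the signalling receptor, was -0.17, -0.11 and -0.20 in shNDRG1 cells, against 0.12, -0.029 and 0.029 in shGFP cells. The nearest arrays were 0.082 apart, both of batch 2, and the log2 difference was -0.20 (standard error 0.058), or 1.15-fold lower, at rank 758. Within batches IGF1R differed by -0.28, -0.082 and -0.23, so batch 2 gave the smallest difference, as it did for IGFBP5 but not for IGF2R.

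The promoters of these receptors are shown beside that of IGFBP5 because their base composition differs from it. That of IGF2R lies on the plus strand at chr6:159968832-159969131 (GRCh38.p14), with capitals at the 3 matches to the palindromic E-box CACGTG, whose first bases lie 132, 74 and 28 bases before the start.
IGF2R: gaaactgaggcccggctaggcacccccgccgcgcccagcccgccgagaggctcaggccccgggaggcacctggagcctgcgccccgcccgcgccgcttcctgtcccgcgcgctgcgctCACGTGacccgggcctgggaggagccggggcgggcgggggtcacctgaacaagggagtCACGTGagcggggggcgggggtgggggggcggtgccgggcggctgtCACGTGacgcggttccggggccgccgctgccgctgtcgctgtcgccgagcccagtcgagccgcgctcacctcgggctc
That of IGF1R lies on the plus strand at chr15:98648289-98648588 (GRCh38.p14), with capitals at the 2 matches to the GC-box letters GGGCGG, at 205 and 192 bases before the start.
IGF1R: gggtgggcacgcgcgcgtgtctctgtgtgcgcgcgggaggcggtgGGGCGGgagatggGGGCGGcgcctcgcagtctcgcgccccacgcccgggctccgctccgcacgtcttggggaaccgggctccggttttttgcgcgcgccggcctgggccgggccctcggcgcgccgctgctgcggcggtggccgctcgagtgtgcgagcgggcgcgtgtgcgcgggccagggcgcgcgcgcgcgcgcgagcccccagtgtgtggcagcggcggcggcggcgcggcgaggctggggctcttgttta
CACGTG was in 7.26% of all promoters and GGGCGG, on either strand, in 45.0%. The GC content was 78.7% for IGF2R and 79.7% for IGF1R, above 96.0% and 97.1% of all promoters, with 41 and 55 CpG dinucleotides, against 9 for IGFBP5. The IGF2R window also held 6 matches to GGGCGG. High GC content was not limited to the receptors that were lower, as INSR had 78.3%, IRS1 79.3% and IRS2 75.7%. Among the paralogs of IGFBP5, IGFBP3 had 74.7%, IGFBP4 74.0% and IGFBP6 61.7%, the last with 12 CpG dinucleotides. The window of IRS1, which was higher, also held 1 match to CACGTG.

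INSR, in contrast, had overlapping groups and a mean above the control. It was -0.051, 0.23 and 0.22 in shNDRG1 cells, against -0.030, -0.027 and -0.094 in shGFP cells. The shNDRG1 array of batch 1 lay among the shGFP arrays, and the paired differences were -0.022, 0.25 and 0.31. The log2 difference was 0.18 (standard error 0.088). INSRR, the insulin receptor-related receptor, was at 0.049 (standard error 0.075) with overlapping groups.

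The adaptors were split. IRS1 was 0.056, 0.28 and 0.14 in shNDRG1 cells, against -0.021, -0.059 and 0.0019 in shGFP cells, so every shNDRG1 array was above every shGFP array, by at least 0.054. Its log2 difference was 0.18 (standard error 0.069), or 1.14-fold higher, with 0.077, 0.34 and 0.14 within batches 1, 2 and 3. IRS2 was -0.017, -0.0021 and -0.0021 in shNDRG1 cells, against 0.0021, 0.011 and 0.011 in shGFP cells. These groups did not overlap either, but by a gap of 0.0041. IRS2 spanned 0.028 over the 6 arrays, and only 0.216% of all genes spanned less, and its log2 difference of -0.015 was smaller than the standard error of 0.040. IRS4, an adaptor outside the chosen set, was at 0.039 (standard error 0.043), with groups apart by a gap of only 0.0014.

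Ordered by the difference, the measured members ran from IGFBP5 at -1.36 through IGF2R at -0.43 and IGF1R at -0.20 to IRS2, IGFBP4, IGFBP3 and IGFBP6 near 0, and ended with INSR and IRS1 at 0.18. This order is a description, the place of IGFBP5 was fixed by the choice, each of the 4 differences near 0 was smaller than its own standard error, and those of INSR and IRS1 lay closer to each other than their standard errors. The median difference was -0.0067 over the 9 members, with 4 above and 5 below 0, and 0.0070 over all 14812 genes.

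**Figure D4:**
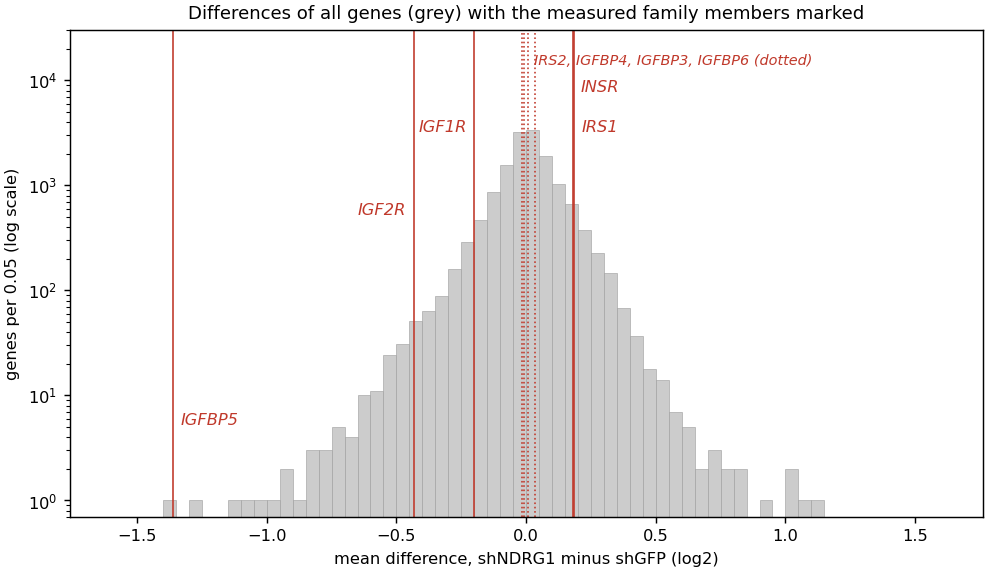
Histogram of the mean difference between shNDRG1 and shGFP cells (horizontal axis, log2) for all 14812 genes, with the number of genes per bin on a log scale (vertical axis) and red lines at the 9 measured members. IGFBP5 lies at the lower end at -1.36, IGF2R and IGF1R at -0.43 and -0.20, and the dotted lines mark IRS2, IGFBP4, IGFBP3 and IGFBP6 close to 0.

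No gene on the arrays passed an adjusted p under 0.05 in limma, 0% of 14812, with or without the batch as a block. Thus 0 of the 9 members passed, and neither did NDRG1, the silenced gene, at -1.01. A gene that did not pass is therefore not shown to be unchanged. At an unadjusted p under 0.05 in limma 3 members were lower, IGFBP5, IGF1R and IGF2R, beside 1.57% of all genes, and 1 was higher, IRS1, beside 2.69%. With the batch as a block the same 3 were lower, beside 3.74% of all genes, and 0 were higher, beside 5.7%. Groups that did not overlap were found for 4 members below the control, IGFBP5, IGF1R, IGF2R and IRS2, beside 3.21% of all genes, and for 1 above it, IRS1, beside 5.14%. The same 4 were lower in every batch, beside 12.5% of all genes, and IRS1 was higher in every batch, beside 17.1%. Because the family was picked from this contrast, nothing is read from these counts.

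A wider list of 60 genes of the IGF and insulin pathway was read from the same fit, of which 37 were measured. From limma 0 of the 37 passed an adjusted p under 0.05, against 1 lower and 1 higher at an unadjusted p under 0.05, which were IGFBP7 and MTOR, beside the 1.57% lower and 2.69% higher over all genes. With the batch as a block 0 passed as well, and at an unadjusted p under 0.05 the counts were 2 lower, IGFBP7 and the docking protein GAB1, and 4 higher, MTOR, STC1, GRB2 and TSC1, beside 3.74% and 5.7% over all genes. The median difference of the 37 was 0.0091, with 20 above and 17 below 0.

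Of the ligands only IGF1 was measured, with values of -0.011, -0.018 and -0.053 in shNDRG1 cells and 0.011, 0.074 and -0.020 in shGFP cells, a log2 difference of -0.049 (standard error 0.047). Among the proteases that cleave binding proteins, PAPPA2, which cuts IGFBP3 and IGFBP5, was at 0.049 (standard error 0.073). The serine protease HTRA1 was at 0.098 (standard error 0.056), and the metalloprotease ADAM12 was at 0.032 (standard error 0.048). HTRA1 was higher by 0.0895, 0.11 and 0.093 in batches 1, 2 and 3. Its groups did not overlap, but by a gap of only 0.0003, beside 5.14% of all genes with shNDRG1 cells above without overlap. STC1, a stanniocalcin that inhibits the pappalysin proteases, was above its control in every batch, by 0.13, 0.16 and 0.20 in batches 1, 2 and 3, although its groups overlapped. STC2, the related inhibitor, was at -0.030 (standard error 0.075).

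Downstream of the receptors, MTOR, the kinase of the mTOR complexes, was 0.16, 0.35 and 0.21 in shNDRG1 cells, against -0.12, 0.12 and -0.18 in shGFP cells. Its groups did not overlap, and the log2 difference was 0.30 (standard error 0.099). GRB2, which links receptors to RAS, was -0.024, 0.39 and 0.46 in shNDRG1 cells, against -0.052, -0.043 and -0.030 in shGFP cells. Its groups did not overlap, but by a gap of only 0.006. The mean difference was carried by batches 2 and 3, since the difference in batch 1 was 0.028. TSC1, a brake on mTOR, was higher by 0.080, 0.21 and 0.18 in batches 1, 2 and 3. Of the 6 measured PI3K and AKT genes the differences ran from -0.13 to 0.11, and of the 3 FOXO factors, which AKT restrains, from -0.0048 to 0.17. The 3 genes that encode IGF2 mRNA-binding proteins lay between -0.043 and -0.00060.

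**Figure D5:**
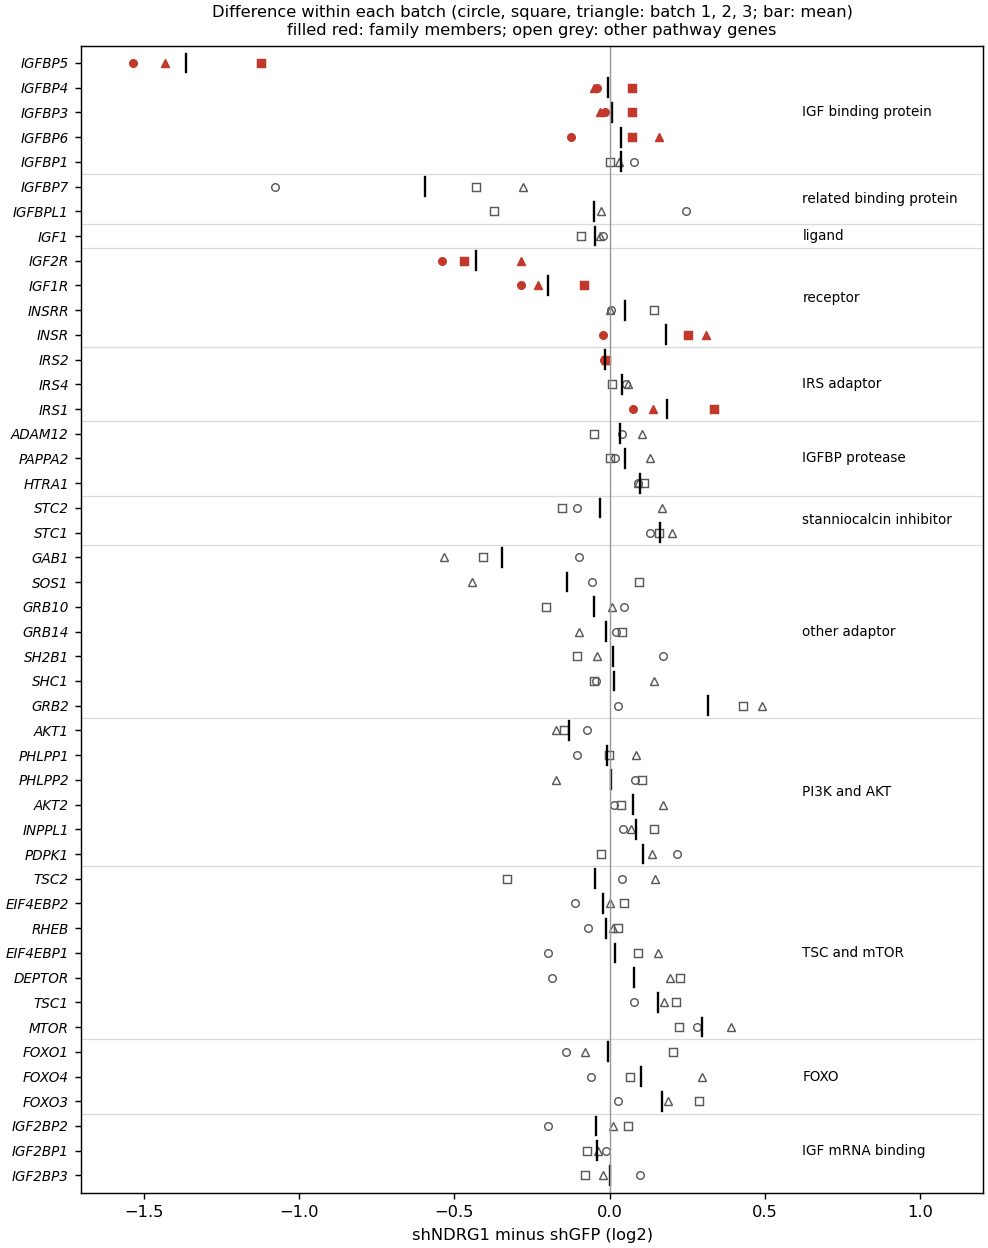
Difference between shNDRG1 and shGFP cells (horizontal axis, log2) within batches 1, 2 and 3 (circle, square, triangle) for the measured members (filled red) and the other measured pathway genes (open grey), grouped by role, with bars for the means. Below 0 in every batch lie 4 of 9 members, including IGFBP5, IGF2R and IGF1R, and 5 of 37 other genes, including IGFBP7. Above 0 in every batch lie 1 member, IRS1, and 11 of the 37, MTOR included. Over all genes 12.5% were lower and 17.1% higher in every batch.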

How the data were processed

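RNA of 6 SKBR3 cultures was hybridised to Affymetrix Gene 2.0 ST arrays. Per the methods, the authors checked the arrays in Affymetrix Expression Console, quantile normalized them with PLIER in GeneSpring GX 11.5 and subtracted the median of the control samples as a baseline. The submitters' processing notes give no versions for Expression Console or PLIER. For every probe the authors deposited a single value per array. The deposited values, which the authors had normalized and baseline-subtracted, were taken as log2, although the base of the log is not stated. The build behind the array annotation used by the authors is not named in the sources used here. The middle shGFP array stood at 0.16 for IGFBP5 and 0.57 for THRSP, so the median of the shGFP arrays alone was not the baseline. Which samples set the baseline stays unknown, but it cancels in differences between arrays.

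The probe table named 1 gene for 15835 of 44629 probes and several for 0, and the other 28794 probes are unnamed here. Probes were averaged per gene, and 0 symbols changed when they were updated through gene identifiers to RefSeq (GRCh38.p14). Of the 14812 genes 651 had more than 1 probe. The table held 0 unused columns of per-sample values, and at most 54 probes had identical values on 2 arrays.

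Groups were compared by limma 3.58.1 in R 4.3.3 over all genes without a covariate, with Benjamini-Hochberg adjustment, and standard errors are those moderated by limma. The labels number a shared batch, which pairs the arrays. Deviations from the group means correlated within the pairs at 0.785 (batch 1), 0.833 (batch 2) and 0.163 (batch 3) over genes, and a second fit had batch as a block. The fits were run on simulated data with set differences added to independent noise. That run checks the code and does not show the power of the fits on these arrays. Precision is limited by 3 arrays per group, and no filter on dim probes was possible without levels. Members, lists and rules were chosen with earlier results of these data known. The genes named are the members, NDRG1, listed pathway genes at an unadjusted p under 0.05 and all measured ligands, proteases and stanniocalcins, the neighbours of IGFBP5 by position and by difference, and the 5 genes most like it. Other genes were named after their values were seen, and GAB1, STC1, GRB2 and TSC1 by the fit with the block. Promoters came from RefSeq, with entries for all 10 members.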

Additional observations from a re-analysis of the deposited data

How the results depend on the processing

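No member passed an adjusted p under 0.05 in limma, nor did any other gene of the pathway list, when batch, or the day in the titles, was a block, when arrays were median centred or quantile normalized once more, when variance was trended and robust, when arrays were weighted, when the probe of largest range stood for a gene, when the limit was 0.1, or when an array or a batch was left out. Array weights called 5 genes over all, against 0 in every other setting, and moved IGFBP5 to rank 3 by difference. Without single arrays or batches its rank ranged from 1 to 2, and its log2 difference from -1.49 to -1.20. With the batch as a replicate block the difference of IGFBP5 stayed at -1.36, as it must with an array of both groups in each batch. The block changed no call at an adjusted p under 0.05. At an unadjusted p under 0.05 it left 0 members higher, beside 5.7% of all genes, against 1 (IRS1) without it, beside 2.69%. The same 3 were lower, beside 3.74% of all genes with the block and 1.57% without it. IGF2R and IGF1R stayed below 0 and INSR and IRS1 above 0 in all 16 alternatives. By design, the blocks, the trended and robust variance and the choice of probe could not change these differences. Groups were balanced within blocks, variance does not enter a difference, and each member had 1 probe. IGFBP3, IGFBP4 and IGFBP6 ranged without single arrays or batches from -0.054 to 0.041, from -0.062 to 0.033 and from -0.091 to 0.15, and array weights gave IGFBP3 -0.014. With trended and robust variance 2 members were lower and 0 higher at an unadjusted p under 0.05, beside 243 and 357 of all 14812 genes. Array weights gave 3 members lower and 2 higher, beside 1186 and 1753 of all genes. Without single arrays or batches 2 to 3 members were lower, beside 120 to 471 of all genes. There were 2 without the shNDRG1 array of batch 3, without batch 1 or without batch 3. Higher were 2 (without the shNDRG1 array of batch 1), 1 (without batch 1) and 0 in the remaining leave-outs, beside 146 to 566 of all genes. The members lower in every remaining batch numbered 4 to 6, with 6 without either or both arrays of batch 2. IGFBP3 and IGFBP4 were then added, with differences of 0.0090 and -0.0067 over all arrays. With 2 batches left the rule is easier to meet than over all batches, where 12.5% of all genes met it. The share of all genes in the leave-outs was not computed.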

Other observations

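SOS1, which encodes the exchange factor that GRB2 brings to RAS, varied with batch 2 far more than any family member. It was 0.11, -1.30 and -0.42 in shNDRG1 cells, against 0.17, -1.39 and 0.018 in shGFP cells. The arrays of batch 2 were thus the lowest of both groups, and the differences were -0.058, 0.093 and -0.44. GAB1, a docking protein downstream of receptor tyrosine kinases, was 0.00020, -0.74 and -0.53 in shNDRG1 cells, against 0.10, -0.34 and -0.00020 in shGFP cells. Both genes were described after their values were seen.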
